A study of Homo sapiens with 6 samples.

Results

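The genes described here are 10 components of insulin and insulin-like growth factor (IGF) signalling, taken by symbol from the 17185 genes named on the array. They are the cell-surface receptors IGF1R, INSR and IGF2R, the docking proteins IRS1 and IRS2, and the secreted binding proteins IGFBP3, IGFBP4, IGFBP5, IGFBP6 and IGFBP7. All 10 were measured, each by 1 named transcript record. Their levels were compared in MDA-MB-231 cells between 3 cultures given DCC-2036 at 3.75 μM and 3 control cultures at 0 μM, all sampled after 48 h. The kinase inhibitor DCC-2036 is also known as rebastinib. The cultures came from 3 independent experiments according to the study's design text, and arrays are named below by the replicate number in their labels, which do not say whether a number marks an experiment. MDA-MB-231 is an established line of triple-negative breast cancer, all values come from it alone, and whether control cultures received the solvent is not given in the sources used here.

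IGF1 and IGF2 act mainly through IGF1R, a tyrosine kinase receptor of growth and survival signals, and insulin acts mainly through the closely related INSR. The activated receptors phosphorylate IRS1 and IRS2, which recruit PI3K and so switch on AKT and mTOR. The secreted binding proteins hold IGFs away from the receptors or release them near the cell surface, and IGF2R removes IGF2 by taking it into the cell.

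The arrays carried 1 colour, and the deposited table holds 1 intensity per record and array, taken as linear from its range. Median intensities over all 45033 records lay between 267 and 273 on the DCC-2036 arrays and between 265 and 274 on the control arrays. Precision is limited by there being 3 arrays per group. The threshold used throughout is a limma adjusted p under 0.05, which 29.1% of all genes passed, 13.1% as higher and 16% as lower in treated cultures. In 46.5% of all genes the 3 DCC-2036 values lay wholly on one side of the 3 control values. Among markers of the line, VIM averaged 11529.6 on the DCC-2036 arrays and 16441 on the control arrays, and the means of CD44, AXL and CAV1 also lay above the median record. VIM, AXL and CAV1 passed as lower with DCC-2036, and the part of this in the results below was not tested. The epithelial gene CDH1 averaged 22.1 on the DCC-2036 arrays and 39.7 on the control arrays. The mean intensities of CDH1 and of the hormone receptor genes ESR1 and PGR lay in the dimmest 25% of records, as did those of all 5 markers of leukocytes, endothelium and liver (PTPRC, CD3E, PECAM1, CDH5 and ALB). ERBB2, the HER2 gene, was not dim, with means of 1814 on the DCC-2036 arrays and 1811 on the control arrays. Because the arrays were scaled to a common distribution, a change in the total RNA of a cell and a change in the share of cells that express a gene cannot be told apart from a change in its mRNA per cell.

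After 48 h with DCC-2036 the mRNAs of both docking proteins were lower, IRS1 by 1.89-fold and IRS2 by 1.68-fold. Those of 2 binding proteins were higher, IGFBP3 by 2.45-fold and IGFBP6 by 1.72-fold. The other 6 genes, including all 3 receptors, did not pass the test. The 4 of 10 that passed stand beside 29.1% of all genes, the 2 higher beside 13.1% of all genes, and the 2 lower beside 16%. These shares cover genes of every brightness, while 7 of the 10 lay above the median record. With records below the median left out, 2291 of 9025 genes passed as higher and 2751 as lower. The median log2 change was 0.21 over the 10 genes and 0.02 over all genes. In 6 of the 10 the groups did not overlap, beside 46.5% of all genes. These 6 also had an unadjusted p under 0.05, as did 41.0% of all genes.

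**Figure D1:**
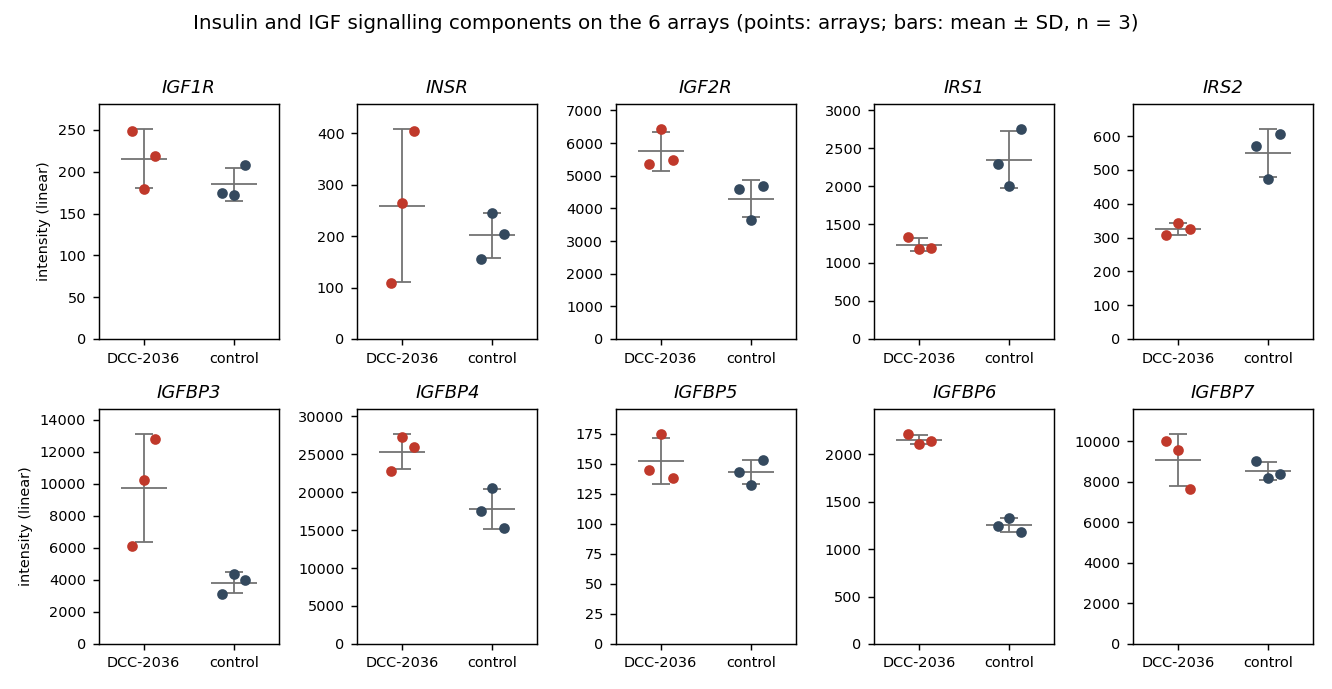
Intensity (linear scale, vertical axis from 0) of each of the 10 genes in the 3 DCC-2036 and 3 control arrays, with points for arrays and bars for mean ± SD (n = 3). The IRS1 and IRS2 points with DCC-2036 lie wholly below those of control, the IGF2R, IGFBP3, IGFBP4 and IGFBP6 points wholly above, and the groups overlap for IGF1R, INSR, IGFBP5 and IGFBP7.

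IGF1R, the main IGF receptor, had intensities of 249, 179.7 and 219 on the DCC-2036 arrays and 175, 172 and 208 on the control arrays. The highest 2 values came from treated cultures, but the groups overlapped. The log2 change was 0.22 ± 0.18 (SE; limma adjusted p = 0.415). The 95% interval of the ratio of treated to control signal ran from 0.860 to 1.57.

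INSR, the insulin receptor, had the largest standard error of the 10. It had 109, 265 and 405 on the DCC-2036 arrays and 156, 244 and 204 on the control arrays. Both the lowest and the highest value came from treated cultures. The mean was 259.6 ± 148 with DCC-2036 and 201 ± 44.4 in control cultures (SD, n = 3 each). Its log2 change of 0.20 ± 0.48 did not pass (limma adjusted p = 0.793), its interval ran from 0.512-fold to 2.56-fold, and it was -0.22 without DCC-2036 array 3, the brightest array for this gene.

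IGF2R, the mannose 6-phosphate receptor that clears IGF2 and sorts lysosomal enzymes, lacks a kinase. It had 5346, 6417 and 5471 on the DCC-2036 arrays and 4596, 3633 and 4673 on the control arrays. Every treated value lay above every control value, as in 22.2% of all genes. The log2 change was 0.42 ± 0.17, with a 95% interval of 1.01-fold to 1.78-fold, and its adjusted p of 0.112 in limma missed the threshold. With eBayes trend and robust settings, which let the spread depend on brightness, the adjusted p was 0.0294, and among the brighter records only it was 0.0375.

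IRS1, the docking protein that links both kinase receptors to PI3K, fell. Its intensities were 1333, 1176 and 1195 with DCC-2036, against 2298, 1999.5 and 2745 in control cultures. The treated arrays lay close together and wholly below the control arrays, as in 24.3% of all genes. The mean was 1234 ± 85.7 with DCC-2036 and 2348 ± 375 in control cultures (SD, n = 3 each), a log2 change of -0.92 ± 0.17 (limma adjusted p = 0.0103). The 95% interval put the treated level between 0.399 and 0.703 of the control level, and the call held without each array in turn (-1.03 to -0.80).

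IRS2, the second docking protein, fell as well. It had 307, 343 and 326 on the DCC-2036 arrays and 571, 472 and 607 on the control arrays. The treated arrays again lay wholly below the control arrays. The mean was 325 ± 17.8 with DCC-2036 and 549.9 ± 69.7 in control cultures (SD, n = 3 each), a log2 change of -0.75 ± 0.16 (limma adjusted p = 0.0154). The treated level lay between 0.458 and 0.772 of the control level by the 95% interval. Without control array 1 the log2 change was -0.72 and the adjusted p 0.0570, so the call was lost.

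The stretches just upstream of both genes that fell are shown because IRS2 is a known target of FOXO transcription factors, which insulin signalling holds out of the nucleus. They are the 250 bases before the RefSeq start site in build GRCh38.p14, read 5′ to 3′ on the strand of the gene. The IRS1 stretch is chr2:226799821-226800070 on the minus strand and the IRS2 stretch is chr13:109786584-109786833 on the minus strand. Capitals mark 6 short motifs searched on both strands: the FOXO site TGTTTAC, the insulin response element TGTTTTG, the AP-1 site TGANTCA, the TATA box TATAAA, the TEAD site GGAATG and the GC box GGGCGG. Neighbouring GC boxes may share a base, and a match is a match of letters only.
IRS1: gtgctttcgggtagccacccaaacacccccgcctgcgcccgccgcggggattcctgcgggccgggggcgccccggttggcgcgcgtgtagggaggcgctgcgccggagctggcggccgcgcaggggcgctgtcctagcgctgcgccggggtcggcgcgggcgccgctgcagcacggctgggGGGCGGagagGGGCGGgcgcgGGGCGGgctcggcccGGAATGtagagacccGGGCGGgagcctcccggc
IRS2: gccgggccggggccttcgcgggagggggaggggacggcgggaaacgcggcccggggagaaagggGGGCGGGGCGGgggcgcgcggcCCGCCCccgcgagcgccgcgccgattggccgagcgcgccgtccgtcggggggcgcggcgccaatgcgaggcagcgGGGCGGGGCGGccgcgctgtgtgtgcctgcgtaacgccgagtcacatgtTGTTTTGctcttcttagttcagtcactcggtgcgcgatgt
The IRS1 stretch held 4 GC boxes and 1 TEAD match, which begins at position -33 from the start site. The IRS2 stretch held 5 GC boxes and 1 insulin response match, which begins at -40. Neither stretch held a FOXO, AP-1 or TATA match. Of 35116 RefSeq promoter stretches of the same length, 42.6% held a GC box, 11.9% a TEAD match, 6.57% an AP-1 match and 4.30% an insulin response match.

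IGFBP3, the main carrier of IGFs in the circulation, rose the most of the 10 genes. It had 6121, 10236 and 12785 on the DCC-2036 arrays and 3107, 4376 and 3984 on the control arrays. The treated values were spread over a wide range, and all of them exceeded the control values. The mean was 9714 ± 3363 with DCC-2036 and 3823 ± 649.7 in control cultures (SD, n = 3 each). The log2 change was 1.30 ± 0.30 (limma adjusted p = 0.0226), with a 95% interval of 1.48-fold to 4.07-fold. It lost its call without control array 1 (1.15) or 3 (1.33) or DCC-2036 array 2 (1.23) or 3 (1.06), with adjusted p between 0.0552 and 0.0749.

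IGFBP6, a binding protein that prefers IGF2 to IGF1, rose with little spread. It had 2212, 2114 and 2143 on the DCC-2036 arrays and 1246, 1333 and 1185 on the control arrays. The gap between the groups was much wider than the spread inside either of them. The mean was 2156 ± 50.7 with DCC-2036 and 1255 ± 74.2 in control cultures (SD, n = 3 each), a log2 change of 0.78 ± 0.13 (limma adjusted p = 0.00771). The interval ran from 1.38-fold to 2.14-fold, and the log2 change stayed between 0.74 and 0.83 with the call held without each array in turn.

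The upstream stretches of both binding protein genes that rose are shown in the same way, for comparison with IRS1 and IRS2. The IGFBP3 stretch is chr7:45921273-45921522 on the minus strand and the IGFBP6 stretch is chr12:53097417-53097666 on the plus strand, both in GRCh38.p14, and capitals mark the same 6 motifs.
IGFBP3: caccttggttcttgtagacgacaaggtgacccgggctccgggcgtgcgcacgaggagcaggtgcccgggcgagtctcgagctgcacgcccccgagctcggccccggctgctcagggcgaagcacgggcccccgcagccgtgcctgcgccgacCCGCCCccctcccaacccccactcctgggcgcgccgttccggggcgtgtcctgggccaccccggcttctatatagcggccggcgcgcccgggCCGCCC
IGFBP6: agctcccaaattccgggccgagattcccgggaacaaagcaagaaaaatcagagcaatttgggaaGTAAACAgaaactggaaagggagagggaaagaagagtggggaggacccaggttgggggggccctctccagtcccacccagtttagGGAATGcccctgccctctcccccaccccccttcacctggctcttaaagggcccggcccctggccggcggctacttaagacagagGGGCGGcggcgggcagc
The IGFBP3 stretch held 2 GC boxes and none of the other 5 motifs. The IGFBP6 stretch held 1 FOXO match at -186, read on the opposite strand, 1 TEAD match at -101 and 1 GC box at -17. A FOXO match occurred in 2.98% of all stretches. The IGFBP6 stretch was 61.2% G and C, that of IGFBP3 76.0%, that of IRS1 80.8% and that of IRS2 76.4%. Of the 10 genes, 9 had a stretch in the RefSeq table, and IGFBP7 did not. In the other 5 stretches the matches were GC boxes in IGF1R, INSR, IGF2R and IGFBP4, a TATA box in IGFBP4 at -29, a motif held by 10.7% of all stretches, and a TEAD match in IGFBP5 at -235.

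IGFBP4, which mostly restrains IGF action until it is cleaved, had 22861, 27266 and 25982 on the DCC-2036 arrays and 17515, 20592 and 15340.1 on the control arrays. The groups did not overlap. The log2 change was 0.52 ± 0.17, with a 95% interval of 1.08-fold to 1.90-fold, and it missed the threshold (limma adjusted p = 0.0645). It passed without the dimmest 25% of records (0.0379), among the brighter records only (0.0163) and with eBayes trend and robust settings (0.00858).

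IGFBP5, a binding protein that also attaches to the matrix, had 145, 174 and 138 on the DCC-2036 arrays and 143, 133 and 153 on the control arrays. IGFBP7, a relative with low affinity for IGFs, had 10028, 9552 and 7629 with DCC-2036 and 9047, 8169.8 and 8371 in control cultures. In both genes the groups overlapped. Their log2 changes were 0.09 ± 0.16 and 0.08 ± 0.16 (limma adjusted p = 0.722 and 0.747). The interval of the ratio was 0.816 to 1.38 for IGFBP5 and 0.807 to 1.38 for IGFBP7, and IGFBP5 was at -0.016 without DCC-2036 array 2.

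**Figure D2:**
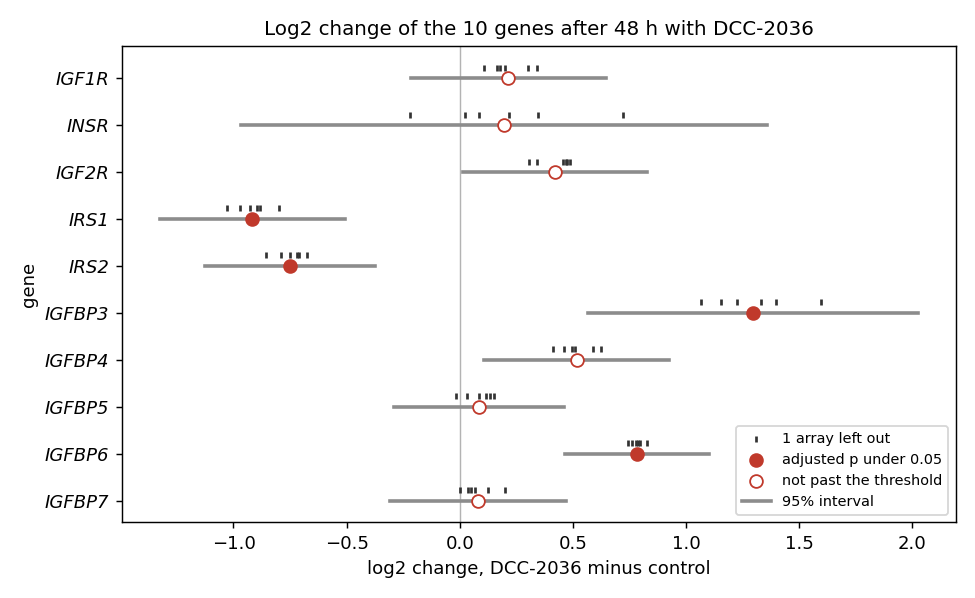
Log2 change (DCC-2036 minus control, horizontal axis) of each of the 10 genes, with a circle for the limma estimate, a grey line for its 95% interval and ticks for the values with 1 array left out in turn. The filled circles are IRS1 and IRS2 at -0.92 and -0.75 and IGFBP3 and IGFBP6 at 1.30 and 0.78, and the ticks of INSR are spread from -0.22 to 0.72.

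The genes whose profiles over the 6 arrays were nearest to those of 4 of the genes were found by the mean absolute difference of mean-centred log2 values, among 9024 genes brighter than the median record. For IGF1R they were MPG (0.03) and MED9 (0.04), and for IRS1 CEP164 (0.06) and PIGW (0.06). For IRS2 they were NUCKS1 (0.04) and UBR2 (0.06). The genes nearest to IGFBP3, FOXJ2 (0.10) and WASF3 (0.11), lay farther from it. The genes were chosen on the same 6 arrays, treated and control, so their changes follow from that choice and were no separate test. CEP164 had a log2 change of -0.91, PIGW of -0.99, NUCKS1 of -0.76, UBR2 of -0.68, FOXJ2 of 1.26 and WASF3 of 1.47, all past the threshold, while MPG (0.18) and MED9 (0.22) were not. NUCKS1 lost its call without control array 1 or 3 or DCC-2036 array 3 (-0.75 to -0.69). UBR2 lost it without control array 1 or 3 or DCC-2036 array 1 or 2 (-0.70 to -0.60), and FOXJ2 without control array 1 or DCC-2036 array 2 (1.09 to 1.26).

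Beyond these 10, 74 of 76 other genes of the pathway, listed by role, were measured. Of the 74, 16 rose and 9 fell, beside 13.1% and 16% of all genes, and their median log2 change was 0.24 against 0.02 over all genes. The count of 16 was 10 without control array 1 or DCC-2036 array 2, and that of 9 was 4 without control array 1 and 5 without control array 3. The groups did not overlap in 45 of the 74, beside 46.5% of all genes.

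**Figure D3:**
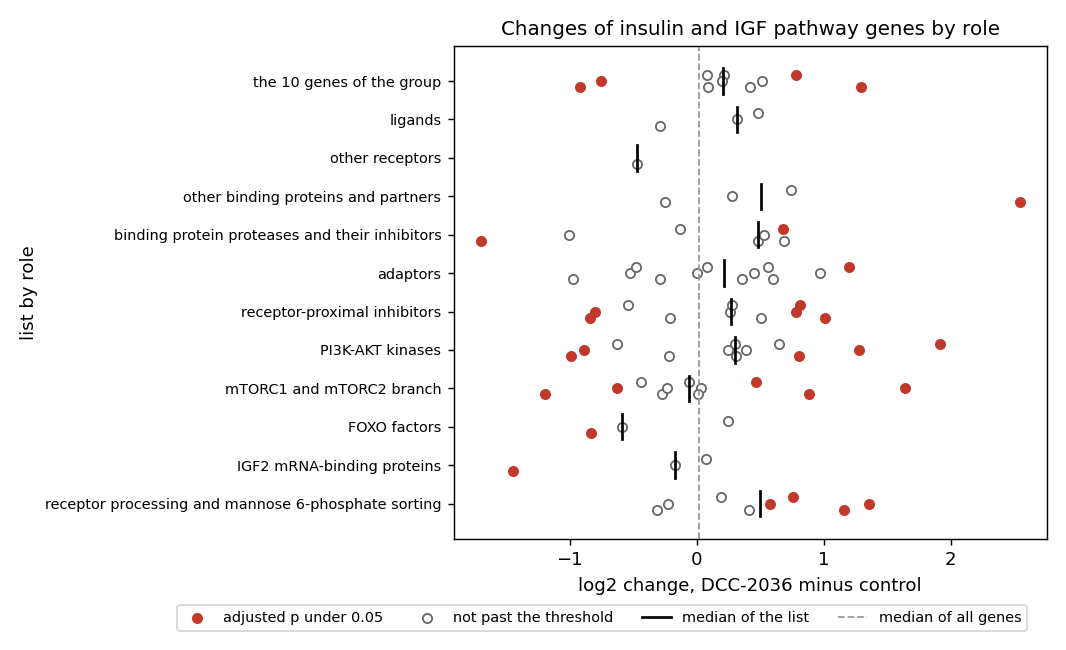
Log2 change (DCC-2036 minus control, horizontal axis) of the 10 genes and of the 74 other pathway genes by role, with 1 point per gene, filled where the adjusted p was under 0.05, a bar at the median of each list and a dashed line at the median of all genes (0.02). IGFBP1 is the point farthest to the right, at 2.54, and STC1 the one farthest to the left, at -1.70.

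Of the 3 ligand genes 0 passed in limma, and 0 had an unadjusted p under 0.05, beside 29.1% and 41.0% of all genes. IGF1 was dim on all 6 arrays, with means of 18.2 on the DCC-2036 arrays and 22.4 on the control arrays and a log2 change of -0.29 (limma adjusted p = 0.207). INS, the insulin gene, changed by 0.48 (0.269). IGF2 had 2 records that went opposite ways. The brighter had 409.6, 361 and 282 with DCC-2036 and 320.3, 371 and 181 in control cultures, which overlap (0.32 ± 0.31, limma adjusted p = 0.482). The dimmer had 62.5, 87.2 and 81.9 with DCC-2036, wholly below the 162, 133 and 144 of control cultures, a log2 change of -0.92 ± 0.18 that passed when each record was tested on its own (limma adjusted p = 0.0145 over all records). INSRR, the insulin receptor-related receptor, was dim and changed by -0.47 (limma adjusted p = 0.413).

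IGFBP1 showed the largest change of all the pathway genes measured. It encodes a binding protein whose gene is switched off by insulin in liver through FOXO factors. Its intensities were 815, 972 and 1076 on the DCC-2036 arrays and 254, 214 and 78.0 on the control arrays. The groups were far apart. The log2 change was 2.54 ± 0.45, or 5.82-fold (limma adjusted p = 0.00880), and it kept its call without each array in turn (2.02 to 2.86). IGFBP2 changed by 0.74 (limma adjusted p = 0.179), IGFBPL1, an IGFBP-like protein, by 0.27 (0.399) and IGFALS, the subunit that stabilises IGF complexes in blood, by -0.25 (0.622), and IGFALS was at 0.14 without control array 2. Of the 4 genes in that list, 1 rose, beside 13.1% of all genes, and 3 did not pass.

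Among 7 proteases that cut binding proteins and inhibitors of those proteases, 1 rose and 1 fell, shares near the 13.1% and 16% of all genes. STC1, stanniocalcin, an inhibitor of the pappalysins that cleave IGFBP4, had 333, 391 and 502 on the DCC-2036 arrays and 1356, 1174 and 1409.8 on the control arrays. Its log2 change was -1.70 ± 0.19, or 3.24-fold lower (limma adjusted p = 0.00242). PAPPA, a pappalysin named here after its values were seen, had 56.6, 44.6 and 95.7 with DCC-2036 and 156, 128 and 101 in control cultures. It missed the threshold narrowly (-1.01 ± 0.32, limma adjusted p = 0.0565) and passed without DCC-2036 array 3 (-1.31). The closest relatives of STC1 and PAPPA in the list went the other way and did not pass. PAPPA2 changed by 0.49 (limma adjusted p = 0.120), with groups that did not overlap, and STC2 by 0.68 (0.155), with groups that overlapped. HTRA1, a secreted serine protease, rose 1.60-fold (0.68 ± 0.17, limma adjusted p = 0.0262) but did not pass without any one array other than control array 3 (0.57 to 0.70), which leaves 0 higher without control array 1 or DCC-2036 array 1, 2 or 3.

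Of 12 adaptors that bind the receptors or IRS proteins, 1 rose, beside 13.1% of all genes, and 11 did not pass. The count of higher adaptors was 2 to 4 in 8 of 10 other settings and 1 in the other 2. SH2B1, an adaptor of the insulin receptor, had 1703, 1511 and 1490.2 with DCC-2036 and 613, 844 and 609.8 in control cultures (1.20 ± 0.18, limma adjusted p = 0.00538). Without DCC-2036 array 2 GRB10, an adaptor that mostly inhibits, passed as well (0.71, against 0.56 ± 0.18 with all arrays). With all arrays GRB10 passed without the dimmest 25% of records (limma adjusted p = 0.0377) and among the brighter records only (0.0154). It also passed with trend and robust settings (0.0112). GRB2 (0.60, limma adjusted p = 0.0513) and NCK1 (0.45, 0.0555) came nearer the threshold with all arrays, and their treated values lay wholly above control. In SHC1 (-0.29), SOS2 (-0.53) and CRK (-0.48) the treated values lay wholly below control, and these did not pass either. IRS4, another docking protein, named like GRB10 after its values were seen, had 849.8 on 1 DCC-2036 array, 77.5 and 69.3 on the other DCC-2036 arrays, and 84.8, 62.0 and 114 on the control arrays. Its log2 change was 0.97 over all arrays and -0.20 without DCC-2036 array 1.

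Proximal inhibitors moved both ways, with 3 of 10 higher and 2 lower, beside 13.1% and 16% of all genes. PTPN2, named here after its values were seen, was counted by the brightest of its 3 records. The 2 brighter records did not pass (-0.21 and -0.037). The dimmest passed as lower when each record was tested on its own (-1.46, limma adjusted p = 0.00491 over all records). SOCS1, a feedback inhibitor of cytokine and insulin receptors, rose 2.01-fold (limma adjusted p = 0.0113). INPPL1, the lipid phosphatase SHIP2, rose 1.76-fold (0.0392) and TRIB3, a pseudokinase that binds AKT, rose 1.72-fold (0.0161). PHLPP1 and PHLPP2, phosphatases of AKT, fell, with log2 changes of -0.80 (0.0133) and -0.84 (0.0307). The mean of PHLPP2 lay in the dimmest 25% of records, and it did not pass with trend and robust settings (limma adjusted p = 0.115). INPPL1 lost its call without control array 1 or 2 or DCC-2036 array 2 or 3 (0.66 to 0.82), and TRIB3 without DCC-2036 array 2 (0.70), where 1 gene was higher. PHLPP1 lost its call without control array 1 (-0.77) and PHLPP2 without any array other than DCC-2036 array 2 (-0.92 to -0.66), which leaves 0 lower without control array 1 and 1 lower without any of the other 4.

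Of 12 genes of PI3K, AKT and kinases linked to them, 3 rose and 2 fell, beside 13.1% and 16% of all genes. PIK3CA, the alpha catalytic subunit, had 299.8, 369.7 and 287 on the DCC-2036 arrays and 708, 665 and 535 on the control arrays (-0.99 ± 0.18, limma adjusted p = 0.01005). PIK3CD, the delta catalytic subunit, had 271, 399 and 393 with DCC-2036 and 653, 632 and 659 in control cultures (-0.89 ± 0.19, limma adjusted p = 0.0171). It lost its call without control array 1 (-0.88) or control array 3 (-0.88), leaving 1 lower.

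PIK3R2, a regulatory subunit, had 4282, 3491 and 3842 with DCC-2036 and 1424, 1690.4 and 1665 in control cultures (1.28 ± 0.16, limma adjusted p = 0.00288). PIK3R3, a shorter regulatory subunit, had 150.1, 134 and 222 with DCC-2036 and 42.9, 44.0 and 41.7 in control cultures (1.92 ± 0.21, limma adjusted p = 0.00224). AKT2, the AKT isoform most tied to insulin action, rose 1.75-fold (0.81 ± 0.15, limma adjusted p = 0.00951). In each of these genes the treated arrays lay wholly above the control arrays, and the calls of PIK3R2, PIK3R3 and AKT2 held without each array in turn.

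**Figure D4:**
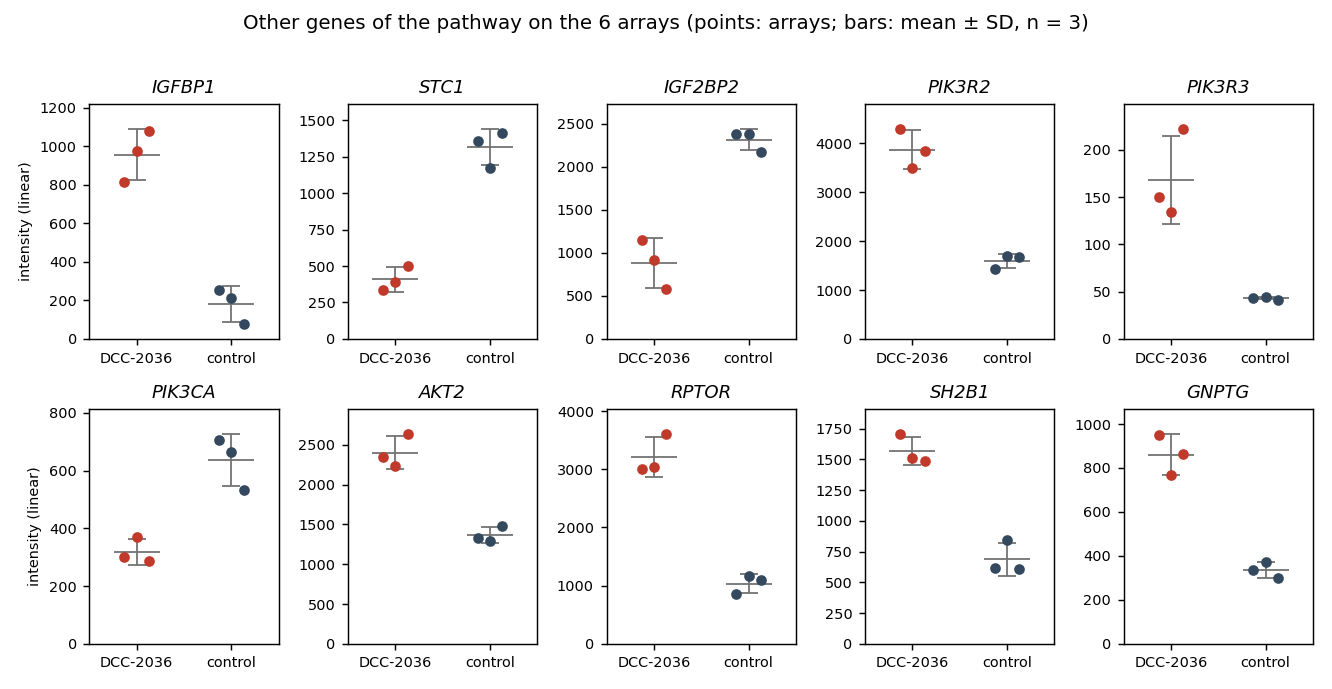
Intensity (linear scale, vertical axis from 0) of 10 other pathway genes in the 3 DCC-2036 and 3 control arrays, with points for arrays and bars for mean ± SD (n = 3). The points of IGFBP1, PIK3R2, PIK3R3, AKT2, RPTOR, SH2B1 and GNPTG with DCC-2036 lie wholly above those of control, and those of STC1, IGF2BP2 and PIK3CA wholly below.

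Of 11 genes of the mTOR complexes, their regulators and downstream factors, 3 rose and 2 fell, beside 13.1% and 16% of all genes. RPTOR, the scaffold of mTORC1, had 2999, 3031 and 3601 with DCC-2036 and 852, 1164 and 1089 in control cultures (1.64 ± 0.18, limma adjusted p = 0.00209). TSC2, an inhibitor of mTORC1, rose 1.84-fold (limma adjusted p = 0.0191) and EIF4EBP1, a translation inhibitor that mTORC1 phosphorylates, 1.38-fold (0.0486). MTOR, the kinase of both complexes, fell, with a log2 change of -0.63 (0.0225) and so did RICTOR, the scaffold of mTORC2, with -1.19 (0.0276).

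Among these, RPTOR alone kept its call without each array. TSC2 lost its call without control array 1 or 2 or DCC-2036 array 2 (0.78 to 0.83), with 1 higher gene left in each case. EIF4EBP1 lost it without each of the 6 arrays in turn (0.41 to 0.53). MTOR lost it without control array 1 or 2 or DCC-2036 array 1 or 2 (-0.66 to -0.55), and RICTOR without control array 2 or 3 or DCC-2036 array 1 or 3 (-1.22 to -1.02). With control array 2 or DCC-2036 array 1 left out, 0 genes of the branch were lower, and with any of the other 4 arrays left out, 1 was.

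Of the 3 FOXO factors, the transcription factors that AKT inactivates, 1 fell (beside 16% of all genes), namely FOXO4. It had 169, 132 and 181 on the DCC-2036 arrays and 338, 244 and 275 on the control arrays (-0.83 ± 0.20, limma adjusted p = 0.0246). It lost its call without control array 1 or 3 or DCC-2036 array 2 (-0.85 to -0.69). FOXO3 changed by -0.59 ± 0.19 (limma adjusted p = 0.0659), with groups that did not overlap, and passed as lower in 4 other settings (adjusted p 0.0118 to 0.0487), while FOXO1 changed by 0.25 (0.404). Among the 3 IGF2 mRNA-binding proteins, which control the fate of IGF2 and other transcripts, 1 fell, beside 16% of all genes. This was IGF2BP2, with 1151, 922 and 578 on the DCC-2036 arrays and 2385, 2382 and 2178 on the control arrays (-1.44 ± 0.27, limma adjusted p = 0.0103). It kept its call without each array, while IGF2BP1 (0.08) and IGF2BP3 (-0.17) did not pass, and each took the other sign without 1 array (-0.070 without control array 1 for IGF2BP1 and 0.056 without control array 3 for IGF2BP3).

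The genes that process the receptors or mark and sort cargo of IGF2R were higher in 4 of 8 cases, beside 13.1% of all genes. All 8 lay above the median record. With records below the median left out, 5 were higher, beside 2291 of 9025 genes. GNPTG, a subunit of the enzyme that begins the mannose 6-phosphate mark, had 952, 769 and 863 with DCC-2036 and 335, 372 and 301 in control cultures (1.35 ± 0.16, limma adjusted p = 0.00264). NAGPA, the enzyme that uncovers the mark, had 524, 409 and 554 with DCC-2036 and 223, 198 and 239 in control cultures (1.16 ± 0.18, limma adjusted p = 0.00538). Both kept their calls without each array. GGA2, an adaptor that carries mannose 6-phosphate receptors from the Golgi, rose 1.49-fold (limma adjusted p = 0.0206), and FURIN, the protease that matures the precursors of IGF1R and INSR, rose 1.69-fold (0.0276).

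GGA2 lost its call without any array other than DCC-2036 array 1 (0.53 to 0.59). FURIN lost its call without any array other than control array 3 (0.59 to 0.79). The count in this list was 2 without control array 1 or 2 or DCC-2036 array 2 or 3.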

How the data were processed

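Total RNA of 6 cultures was labelled with Cy3 and hybridized to NimbleGen arrays, per the labels' protocols. The deposited intensity values were made by the authors with RMA, per the submitters' processing notes, and were used with no further normalization. RMA usually gives log2 values and the scale is not stated, so the values, 8.03 to 65365, were taken as linear, and every fold rests on this. The sources used here do not give the background method, scanner or array build.

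Of 45033 records, 18188 were named by the platform table and 678 by RefSeq accession (GRCh38.p14, names only). The other 26167 had no gene name. A gene with several records was represented by the brightest. Groups of 3 were compared on log2(intensity + 1) with limma 3.58.1 in R 4.3.3 (lmFit, eBayes, two-sided, no covariate), Benjamini-Hochberg adjusted over 17185 genes, threshold 0.05. Standard errors and 95% intervals are those of limma. An exact permutation test of 3 against 3 cannot give p below 0.1, so none is given. Tables and figures used Python 3.11.15, pandas 2.3.3 and matplotlib 3.10.9.

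The 10 genes and all lists were chosen with earlier results of these data known. Named are the 10 genes, list members past the threshold, all members of lists of up to 4, 2 nearest genes for IGF1R, IRS1, IRS2 and IGFBP3, and line markers. PAPPA, PAPPA2, STC2, GRB2, GRB10, NCK1, SHC1, SOS2, CRK, IRS4 and PTPN2 were named outside this rule, after their values were seen. Alternatives were other normalizations, 16 added before the log2, filters on dim records, trend and robust settings, array weights, a replicate block, other records, a threshold of 0.01 and each array left out in turn.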

Additional observations from a re-analysis of the deposited data

How the results depend on the processing

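Of 177 repeats of the 10 log2 changes under other settings, 161 kept their direction and their side of the threshold, 5 newly passed, 9 no longer passed and 2 turned sign. Some repeats had little room to differ. Settings with other records left the 10 log2 changes as they were, and a threshold of 0.01 cannot add a call. IGF2R (0.42) passed with trend and robust settings and without records below the median. IGFBP4 (0.52) passed in these and without the dimmest 25%. Higher members then numbered 4 in each of these settings (trend and robust, and without records below the median). Over all genes, 2654 of 17185 were higher with trend and robust settings, and 2291 of 9025 without records below the median. Only 7 of the 10 members lay above the median record and were tested there. Both filters test fewer genes. At an adjusted p under 0.01, IRS1 (-0.92), IRS2 (-0.75) and IGFBP3 (1.30) no longer passed, leaving 1 member higher and 0 lower, and over all genes 884 higher and 1291 lower, against 2257 and 2745 at 0.05. At an unadjusted p under 0.05, 6 of the 10 passed in limma. With 1 array left out, IGFBP3 ranged from 1.06 to 1.60, IRS2 from -0.86 to -0.67, INSR from -0.22 to 0.72 and IGFBP5 from -0.016 to 0.15. Members higher then ranged from 1 to 2 and lower from 1 to 2, list genes higher from 10 to 14 and lower from 4 to 8, and all genes higher from 1421 to 1886 and lower from 1721 to 2307.

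The replicate numbers showed no clear pairing of the arrays. Deviations from the group means correlated at -0.08, 0.04 and -0.09 between same-numbered arrays, across 17185 genes. Not every array correlated best with its own number. With 3 arrays per group these correlations cannot exclude that same-numbered arrays shared an experiment. With the replicate block, 1376 genes were higher and 1793 lower, 10 list genes were higher, and 1 member was lower, since IRS2 (-0.75) had a limma adjusted p of 0.0586. HTRA1, TRIB3, TSC2, EIF4EBP1, FURIN, GGA2, PHLPP2, MTOR and RICTOR also did not pass with the block (adjusted p 0.0513 to 0.127), nor did NUCKS1 (0.0598) and UBR2 (0.0642), and the mTOR branch then had 1 gene higher and 0 lower. Over all settings other than leaving out an array, adaptors numbered 1 to 4 higher and 0 to 1 lower, proteases and their inhibitors 0 to 2 higher and 1 to 2 lower, proximal inhibitors 1 to 3 lower, FOXO factors 1 to 2 lower, ligands 0 to 1 lower, the mTOR branch 1 to 3 higher and 0 to 3 lower, and sorting genes 2 to 5 higher.

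Among other named genes IGF2 turned sign with the mean of its records (-0.30) and with its second brightest record (-0.92). With 1 array left out, IGFALS ranged from -0.48 to 0.14, IGF2BP1 from -0.070 to 0.28, IGF2BP3 from -0.30 to 0.056 and IRS4 from -0.20 to 1.60. The cause was not tested where none is given. Each of the 10 genes had 1 named record, so other named records could not change it. Whether any of the 26167 unnamed records measured these genes was not tested. No detection call came with the values, so dim genes such as IGF1 could not be called absent.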
